A study of Mus musculus with 2 samples.

Results

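The genes described here encode the motors that walk along microtubules: the kinesins, cytoplasmic dynein, and dynactin, the complex that dynein needs to carry cargo. They were taken by name, as every row of the deposited table whose symbol starts with Kif followed by a digit or a c, with Dync or with Dctn. This gave 55 of 23418 rows, of which 42 were kinesin rows, 7 dynein and 6 dynactin. One of the kinesin rows, Kif4-ps, is a pseudogene. The libraries came from C57BL/6 mouse embryos at the 4 to 8-cell stage that had received an siRNA against Dnmt1, the enzyme that maintains DNA methylation, or a scrambled siRNA. Each group was 1 library from 1 pool of 20 embryos, with mRNA captured on oligo-dT beads and its cDNA amplified by 20 cycles of PCR. There is therefore no replicate check and no p-value, and the 95% intervals given are Clopper-Pearson intervals of counting error alone, which leave out amplification and differences between pools.

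Kinesins share a motor domain that hydrolyses ATP, and most walk towards the plus ends of microtubules. One set builds the spindle, moves chromosomes and completes cytokinesis, and its genes are transcribed in proliferating cells. Another set carries vesicles, mitochondria and other cargo, and many of its members are best known from neurons. Cytoplasmic dynein walks towards minus ends, and it serves both transport and the spindle. Cleavage-stage mouse embryos divide without growing and build their first spindles without centrioles.

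The libraries held 12236615 (siDnmt1) and 11675483 (scrambled) counts. Rn45s, the ribosomal RNA precursor, took 37.3% and 29.9% of them. In pairs of counts the siDnmt1 library is given first. The targeted gene Dnmt1 had 687 against 847, 1.23-fold lower (1.11 to 1.37). Its place among all genes was unremarkable, since 38.3% of them were at least as low on the ratio scale explained below. All 8 listed markers of oocytes and preimplantation embryos had counts in both libraries, but they were not equal between them. Tead4 had 2455 and 2202, Pou5f1 1489 and 2152, and Obox6 1510 and 2365. Dppa3 had 70 and 194, Zp3 13 and 42, and Bmp15 3 and 19. Gdf9 had 27 and 24, and Npm2 9 and 6. The 7 listed markers of cumulus and granulosa cells had 0 counts in both, which allows up to 3 counts each. The blood markers Hbb-b1 and Hba-a1 were also at 0, and Ptprc had 16 and 6 counts.

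Of the 55 rows, 42 passed a mean count of 20 across the pair of libraries and were compared. The other 13 included 6 rows with 0 counts in both libraries: Kif12, Kif2b, Kif4-ps, Kif5a, Kif6 and Dync2li1. Kif2b is a depolymerising kinesin that is close to Kif2a and Kif2c, and Kif5a is the neuronal kinesin 1 heavy chain. The remaining 7 rows had few counts. Kif1a, a carrier of synaptic vesicle precursors, had 0 counts against 5. Kif7, a regulator of Hedgehog signalling at the cilium, had 0 and 3, and Kif19a and Dync1i1 had 0 and 1 each. Kif26a had 3 and 0, Kif21a had 13 and 12, and Kif26b had 10 and 1, 10-fold apart with an interval of 1.42 to 434. By role, 3 of the 6 ciliary, 3 of the 17 transport and 1 of the 15 mitotic kinesins were under this mean, as were 16103 of all 23418 rows.

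Among the 42 genes compared, 5 (Kif21b, Kif1c, Dync2h1, Dctn2 and Kif5c) were 2-fold or more higher in the siDnmt1 library. Another 6 (Kif17, Dctn6, Kif27, Kifc1, Kifc2 and Dctn3) were 2-fold or more lower, on the scale of log2((siDnmt1 + 5)/(scrambled + 5)). This scale understates the change of genes with few counts, and the folds and intervals given beside genes are plain ratios of counts. Over all 7315 genes, 12.5% passed the same size upwards and 16.7% downwards, or 29.1% in either direction. The share among the motors, 26.2%, was near that of all genes. Among the 28 motors with a mean count of 100 or more, 2 passed it upwards and 2 downwards, against 9.33% and 11.4% of all such genes. The median log2 ratio of the motors was 0.16, against -0.02 over all genes. The motors had longer transcripts (median 4723 nt, against 3787 nt), and with the trend of the ratio on transcript length removed the medians were 0.08 and 0.01. The middle 50% of motors spanned -0.52 to 0.57, and that of all genes -0.67 to 0.57. Counts of all motors together made up 0.452% of the siDnmt1 counts without Rn45s and 0.356% of the scrambled ones. In pooled embryos, fewer cells with a transcript and less of it per cell cannot be told apart, nor can a different mix of 4-cell and 8-cell embryos.

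**Figure D1:**
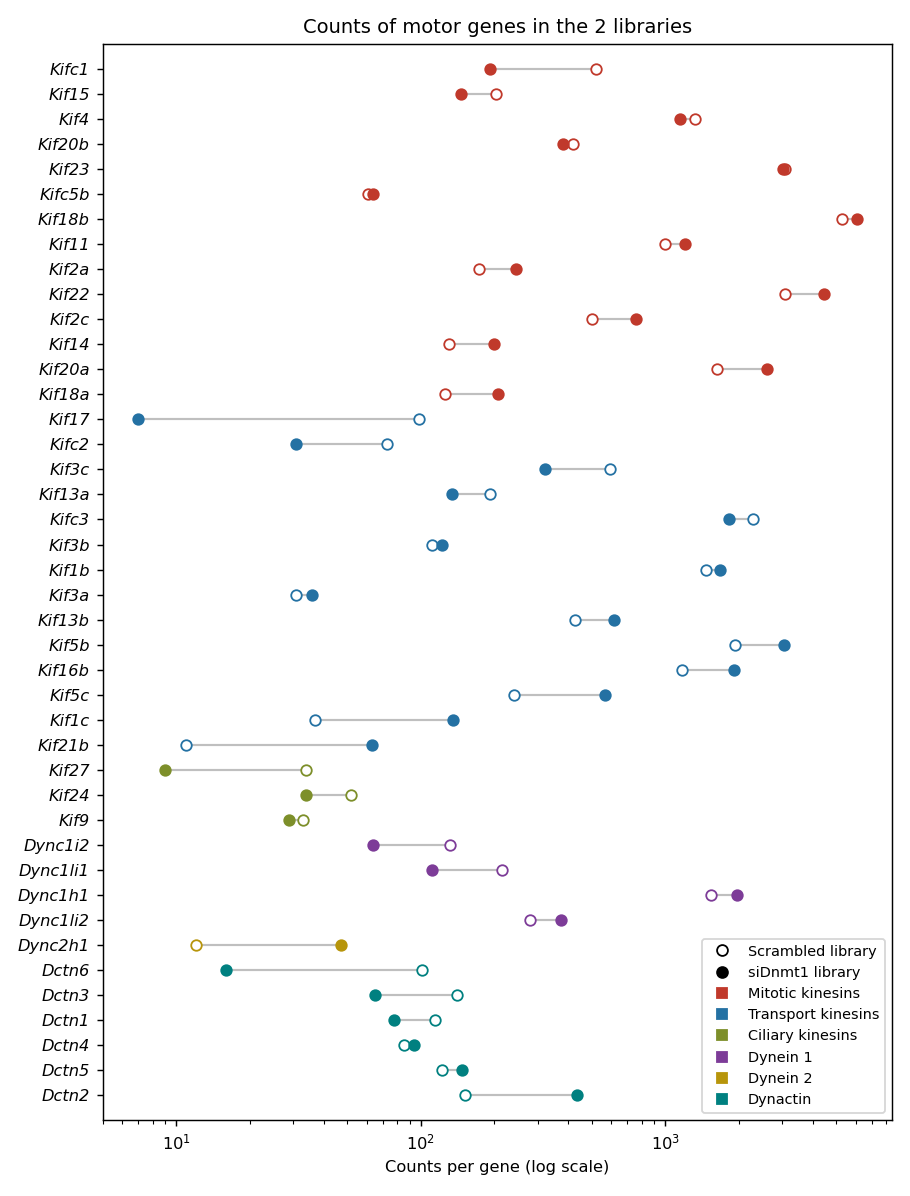
Counts of the 42 motor genes compared, on a log axis, with open circles for the scrambled library and filled circles for the siDnmt1 library, grouped and coloured by role. Each circle is 1 library. Mitotic kinesins lie mostly to the right with short lines between their circles, and Kif17 has the longest line (7 against 98).

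The kinesins of the spindle and of cytokinesis were the largest group by counts. They held 66.2% of all kinesin counts in the siDnmt1 library (65.7 to 66.7) and 66.6% in the scrambled library (66.0 to 67.1), and these intervals overlap. Transport kinesins held 33.5% (33.0 to 34.1) and 33.0% (32.4 to 33.5). The balance between both sets was therefore alike in these libraries within counting error. Summed over genes, mitotic kinesins had 20687 counts against 17501 (1.18-fold higher, 1.16 to 1.21), and transport kinesins 10485 against 8671 (1.21-fold higher, 1.18 to 1.24).

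Levels between genes were compared as counts per kb of the longest annotated transcript, in the order of the mean of both libraries. The highest level of all motors was that of Kif18b, a plus-end kinesin that shortens astral microtubules, with 1819 counts per kb against 1582. Kif22, the chromokinesin that pushes chromosome arms away from the poles, followed with 1239 and 860.3. Kif23, the kinesin of the centralspindlin complex at the midzone, had 893.8 and 906.4. The fourth was a transport kinesin, Kifc3, with 536.3 and 672.6, and the fifth was Kif20a, which brings the chromosomal passenger complex to the midzone, with 711.8 and 441.2. Single libraries differed from this order: Kif20a was above Kifc3 in the siDnmt1 library, and Kif23 above Kif22 in the scrambled library. At the other end of this order stood Dync2h1, with 3.29 and 0.841 counts per kb, and Kif21b, with 6.81 and 1.19. Mitotic kinesins were not all abundant: Kif14 had 22.4 and 14.5 counts per kb and Kifc5b 24.3 and 23.2.

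**Figure D2:**
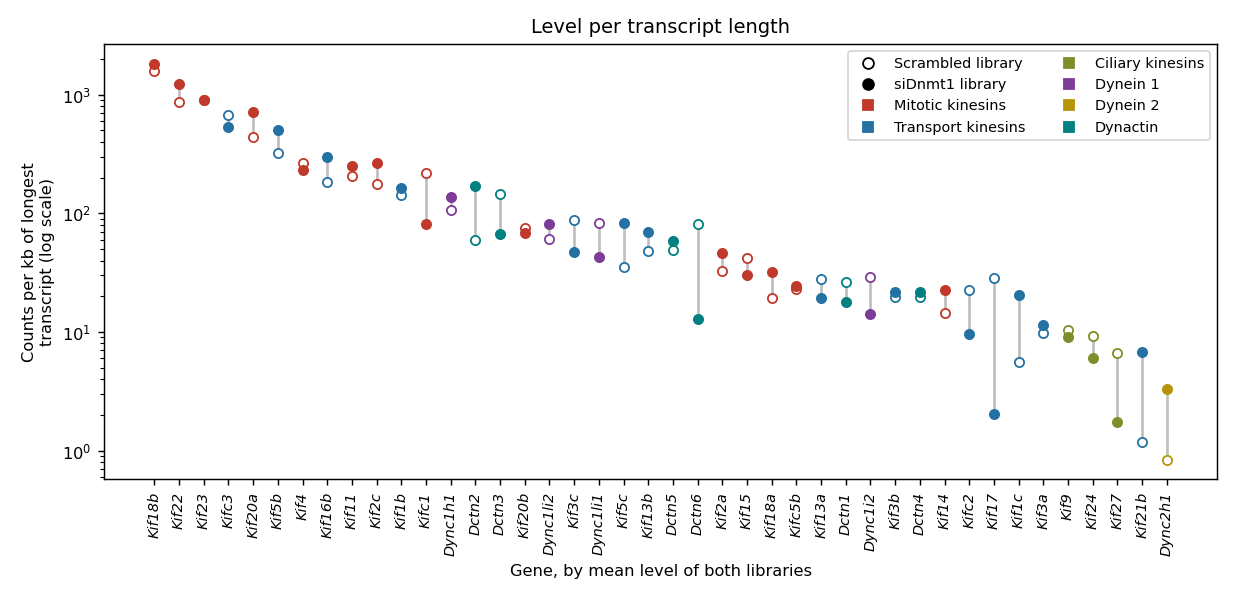
Counts per kb of the longest transcript on a log axis for the 42 motor genes, ordered by the mean of both libraries. Open circles are the scrambled library, filled circles the siDnmt1 library. Kif18b, Kif22 and Kif23 lead, and the genes with long lines between libraries lie mostly in the right part of the order.

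Of 14 mitotic kinesins compared, 13 lay within 2-fold and 1, Kifc1, was beyond it on the lower side. That was 7.14%, against 29.1% of all genes and 20.7% of those with a mean count of 100 or more. The median log2 ratio of the 14 was 0.23, and 9 had a ratio above 0 and 5 below. Over all 7315 genes, 3560 were above 0 and 3718 below. Kifc1, a minus-end kinesin that bundles and focuses spindle microtubules, had 192 counts against 518, 2.70-fold lower (2.28 to 3.20). Its neighbour in sequence, Kifc5b, had 64 and 61 counts. The longest transcripts of both genes were 98.1% identical over 2323 aligned bases, and 58.7% of the 31-base words of Kifc1 also occur in Kifc5b. How the counting treated reads that match both is not given, so the split between them is uncertain. Together they had 256 counts against 579, 2.26-fold lower (1.95 to 2.63).

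The other 12 mitotic kinesins were close to equal or modestly apart. Kif11, the bipolar motor that slides spindle microtubules apart, had 1199 counts against 1000 (1.2-fold higher, 1.1 to 1.31). Kif15, which can take over part of its work, had 146 against 203 (1.39-fold lower, 1.12 to 1.73). The 2 motors of bipolar spindle assembly thus lay on opposite sides of equality. Kif18b had 6050 against 5263 (1.15-fold higher, 1.11 to 1.19) and Kif18a, which restrains chromosome oscillations, 207 against 125 (1.66-fold higher, 1.32 to 2.08).

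Among the motors that act on chromosomes and kinetochores, Kif22 had 4443 counts against 3085 (1.44-fold higher, 1.38 to 1.51). Kif4, a chromokinesin that also shortens midzone microtubules, had 1151 against 1321 (1.15-fold lower, 1.06 to 1.24). Kif2c, which depolymerises microtubules at kinetochores, had 757 against 502 (1.51-fold higher, 1.35 to 1.69). Its relative at the spindle poles, Kif2a, had 244 against 173 (1.41-fold higher, 1.16 to 1.72).

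The motors of cytokinesis did not share a direction. Kif23 had 3037 counts against 3080, with an interval that includes equality (1.01-fold lower, 0.964 to 1.07), and Kif20b, at 382 against 419, also included it (1.1-fold lower, 0.953 to 1.26). Kif20a had 2615 against 1621 (1.61-fold higher, 1.52 to 1.72). Kif14, which recruits citron kinase to the midbody, had 200 against 130 (1.54-fold higher, 1.23 to 1.93). Exons of Kif20a, Kif2a and Kif4 overlap those of Cdc23, Dimt1 and Pdzd11 on the opposite strand over 29.3%, 19.2% and 15.1% of their exonic bases. It is not stated whether reads were counted by strand, so these counts are uncertain.

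The promoters of these kinesins are shown because many of them hold a sequence feature that the choice by name did not use. The cell cycle genes homology region, or CHR, is an element through which many genes of mitosis are repressed outside G2 and M phase. It was searched as TTTGAA or TTCGAA on both strands, so that TTCAAA also counts, in RefSeq windows of 300 bases (250 before to 50 after the annotated start, build GRCm38.p6). Such a window was found for 14 of the 15 mitotic kinesins in the table, and 11 of these held a match (78.6%). Of 11 transport kinesins with a window 1 did (9.09%). So did 21.7% of 27025 genes with a window and 16.0% of the 5552 compared genes with one. Among other motors with a window, 2 of 4 dynactin genes, 2 of 5 ciliary kinesins and 1 of 3 other kinesins held a match. Of the dynein genes, 0 of 4 for dynein 1 and 0 of 1 for dynein 2 did. Within 60 bases before to 50 after the start, 9 of 14 mitotic kinesins had a match. This compares with 1 of 11 transport kinesins and 4.88% of the compared genes. In the same stretch 1 of 5 ciliary kinesins (Kif24) and 1 of 3 other kinesins (Kif26b) had a match, but 0 of 4 dynactin genes. That stretch was chosen after the matches had been seen. It is printed below for the 9 mitotic kinesins, and for Kif17 and Kif1c as transport kinesins with no match, with CHR letters in capitals.

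Kif18b (chr11:102925075-102925184, minus strand): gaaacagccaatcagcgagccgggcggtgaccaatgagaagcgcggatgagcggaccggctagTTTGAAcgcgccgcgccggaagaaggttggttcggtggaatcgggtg
Kif22 (chr7:127042371-127042480, minus strand): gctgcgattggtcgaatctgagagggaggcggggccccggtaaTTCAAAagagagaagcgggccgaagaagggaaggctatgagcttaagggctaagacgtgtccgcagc
Kif23 (chr9:61946750-61946859, minus strand): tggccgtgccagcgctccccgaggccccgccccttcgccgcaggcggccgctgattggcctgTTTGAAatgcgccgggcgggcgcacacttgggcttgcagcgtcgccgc
Kif4 (chrX:100626005-100626114, plus strand): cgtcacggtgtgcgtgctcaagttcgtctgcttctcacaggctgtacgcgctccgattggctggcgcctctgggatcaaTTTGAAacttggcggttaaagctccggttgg
Kif11 (chr19:37376322-37376431, plus strand): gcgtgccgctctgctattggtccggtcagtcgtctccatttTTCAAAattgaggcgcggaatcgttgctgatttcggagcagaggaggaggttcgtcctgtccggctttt
Kif20b (chr19:34922298-34922407, plus strand): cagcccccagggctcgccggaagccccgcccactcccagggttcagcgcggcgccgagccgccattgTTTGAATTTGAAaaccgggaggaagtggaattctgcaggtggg
Kif15 (chr9:122951021-122951130, plus strand): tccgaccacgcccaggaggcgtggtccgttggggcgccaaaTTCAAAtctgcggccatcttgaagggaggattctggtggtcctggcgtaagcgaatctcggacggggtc
Kifc1 (chr17:33890584-33890693, minus strand): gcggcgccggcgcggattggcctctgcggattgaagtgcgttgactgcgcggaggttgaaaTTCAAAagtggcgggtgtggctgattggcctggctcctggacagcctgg
Kifc5b (chr17:26917031-26917140, plus strand): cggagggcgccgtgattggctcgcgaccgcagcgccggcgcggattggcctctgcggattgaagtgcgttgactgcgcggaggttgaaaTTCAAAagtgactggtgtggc
Kif17 (chr4:138262191-138262300, plus strand): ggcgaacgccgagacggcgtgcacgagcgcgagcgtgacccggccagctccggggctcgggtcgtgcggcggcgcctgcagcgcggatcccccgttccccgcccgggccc
Kif1c (chr11:70700488-70700597, plus strand): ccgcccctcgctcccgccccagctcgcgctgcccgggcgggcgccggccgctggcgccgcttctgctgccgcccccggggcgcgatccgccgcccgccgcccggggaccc

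In Kif18b, Kif23, Kifc1 and Kif20b the first match started 4, 3, 2 and 8 bases into the transcribed part, counted from 1 at the start. In Kif11 and Kif15 the match nearest the start began at -19 and in Kif22 at -17, in each case as TTCAAA. Kif15 and Kif22 held another match farther upstream, at -234 and -215. Kif20b held 2 copies end to end. The windows of Kifc1 and Kifc5b were 95% identical over 262 aligned bases, so their matches are copies of 1 stretch and not separate examples. A CCAAT box, on either strand, stood in 9 of 14 mitotic and 3 of 11 transport windows, against 41.1% of all genes with a window. The CHR matches in the mitotic windows stood in genes with quite different ratios, from Kifc1 (log2 ratio -1.41) to Kif14 (0.60). CpG dinucleotides, the sites that Dnmt1 methylates, numbered 26 (median) in mitotic and 30.0 in transport windows, against 24 in the compared genes. The windows of Kif2c and Kif14 were poor in them, with 2 and 3, while that of Kif13a had 62.

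**Figure D3:**
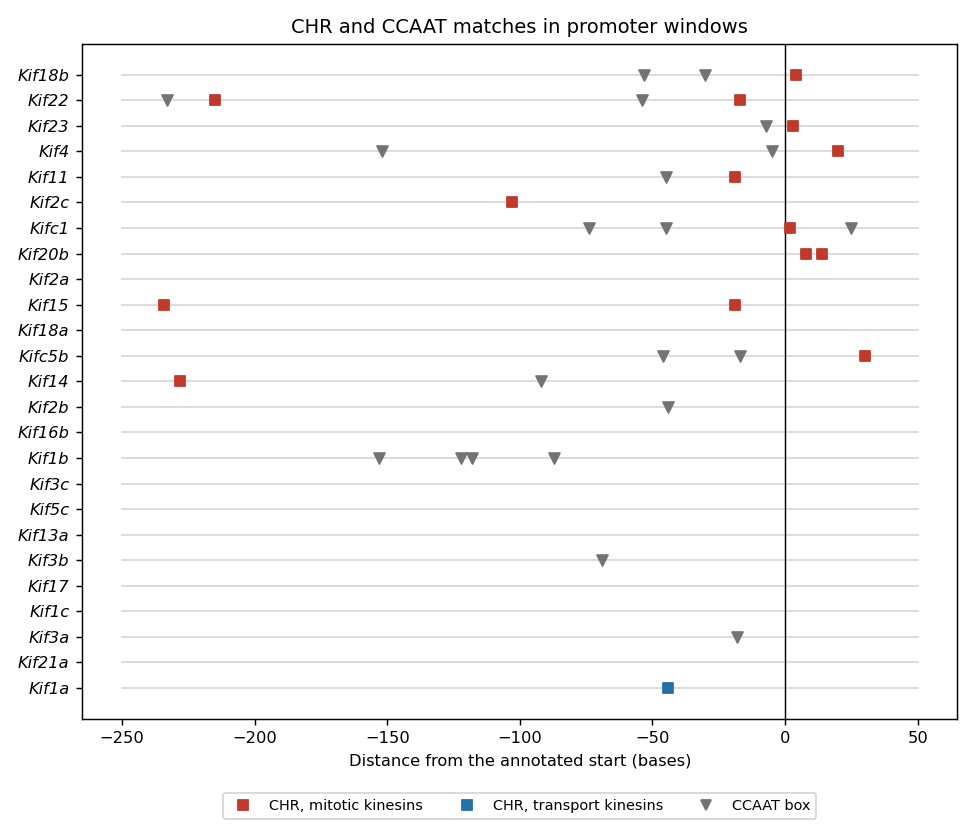
Positions of CHR matches (squares) and CCAAT boxes (triangles) in promoter windows of 14 mitotic (upper rows, red squares) and 11 transport kinesins (lower rows, blue square), as the distance in bases of the first letter from the annotated start. Both windows are drawn on 1 row where a gene has 2. CHR matches near the start are seen in 9 mitotic kinesins and in Kif1a alone among the transport kinesins.

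Of 14 transport kinesins compared, 9 lay within 2-fold, 3 beyond it on the higher side and 2 on the lower. Past 2-fold were thus 35.7%, against 29.1% of all genes. Transport kinesins had a median log2 ratio of 0.19, which differed from that of the mitotic kinesins by 0.04. Their log2 ratios ran from -3.10 (Kif17) to 2.09 (Kif21b), and those of the mitotic kinesins from -1.41 to 0.71. Kif17 and Kif21b passed the filter only through the library in which they were high. That also holds for Dync2h1, Kif27 and Dctn6 among the other motors, and for Hook1, Fez1, Actr10 and Kifap3 among their partners. Among genes with a mean count of 100 or more, transport kinesins ran from -0.87 to 1.21 and mitotic kinesins again from -1.41 to 0.71, so the ranges were about equally wide. Counts differed as well, with a median of the mean count of 283 in transport and 515 in mitotic kinesins. With a mean of at least 100 counts, 1 of 9 transport and 1 of 13 mitotic kinesins were past 2-fold in either direction, against 20.7% of all such genes. With 20 to under 100 counts, 4 of 5 transport kinesins were, against 40.7% of all such genes, and only 1 mitotic kinesin fell in that range. Whether the spread differed between both sets at equal counts was not tested.

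Kif17, the homodimeric kinesin 2 that carries receptors in dendrites and moves in cilia, had 7 counts against 98. It had the lowest ratio of the 42 motors at 14-fold lower (6.54 to 35.7), and 1.27% of all genes were at least as low. The heterotrimeric kinesin 2 motors, which work in intraflagellar transport, did not follow it. Kif3a had 36 counts against 31 (0.698 to 1.94) and Kif3b 122 against 111 (0.843 to 1.43), both with intervals of the ratio that include equality. Kif3c, the other partner of Kif3a, had 322 against 592 (1.84-fold lower, 1.60 to 2.11), and exons of the antisense gene 1110002L01Rik (0 against 4 counts) overlap 35.3% of its exonic bases. The family therefore spread from near equality to the extreme of the set.

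Kinesin 1, the conventional carrier of vesicles and mitochondria, was higher in both heavy chain genes that had counts. Kif5b, the form found in most cells, had 3048 counts against 1928 (1.58-fold higher, 1.49 to 1.67). Kif5c, known from neurons, had 566 against 241 (2.35-fold higher, 2.02 to 2.74). The light chains of kinesin 1 that were compared were all lower. Klc4 had 42 counts against 308 (7.33-fold lower, 5.30 to 10.4) and Klc2 70 against 171 (2.44-fold lower, 1.84 to 3.27). Klc1 had 81 against 145 (1.79-fold lower, 1.35 to 2.38). Klc3, with 4 against 0, was not compared. The adaptors had mixed values. Spag9, a scaffold that links kinesin 1 to JNK signalling, had 1770 against 984 (1.80-fold higher, 1.66 to 1.95). Of 15 compared genes for light chains and adaptors, 0 lay beyond 2-fold on the higher side and 4 on the lower (26.7%). Over all genes 12.5% lay beyond it on the higher side and 16.7% on the lower. The median log2 ratio of these 15 genes was -0.52. The other extremes were Fez1 (8 against 42) and Kifap3, the subunit that binds Kif3a and Kif3b (31 against 17). The interval of Kifap3 includes equality (1.82-fold higher, 0.979 to 3.51).

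The kinesin 3 family moves vesicles and endosomes over long distances. Kif1c, a carrier of vesicles and of integrins, had 136 counts against 37 (3.68-fold higher, 2.54 to 5.44). Kif1b, of mitochondria and synaptic vesicle precursors, had 1676 against 1472 (1.14-fold higher, 1.06 to 1.22), and its log2 ratio of 0.19 was -0.02 once the trend with transcript length was removed. Kif16b, which moves early endosomes, had 1901 against 1165 (1.63-fold higher, 1.52 to 1.76). The pair Kif13a and Kif13b lay on opposite sides, with 134 against 192 (1.43-fold lower, 1.14 to 1.80) and 615 against 427 (1.44-fold higher, 1.27 to 1.63).

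Kif21b, a kinesin 4 that also limits microtubule growth, had the highest ratio of the 42 motors, with 63 counts against 11 (5.73-fold higher, 2.99 to 12.1). Its close relative Kif21a had 13 and 12. The minus-end kinesins outside mitosis were lower: Kifc2 had 31 against 73 (2.35-fold lower, 1.53 to 3.71) and Kifc3, which serves apical transport and adherens junctions, 1815 against 2276 (1.25-fold lower, 1.18 to 1.33). Together with Kifc1, 3 of the 4 genes of the kinesin 14 family were lower, as were 3718 of all 7315 genes. Kifc5b was at 64 against 61, but the split of counts between Kifc1 and Kifc5b is uncertain.

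**Figure D4:**
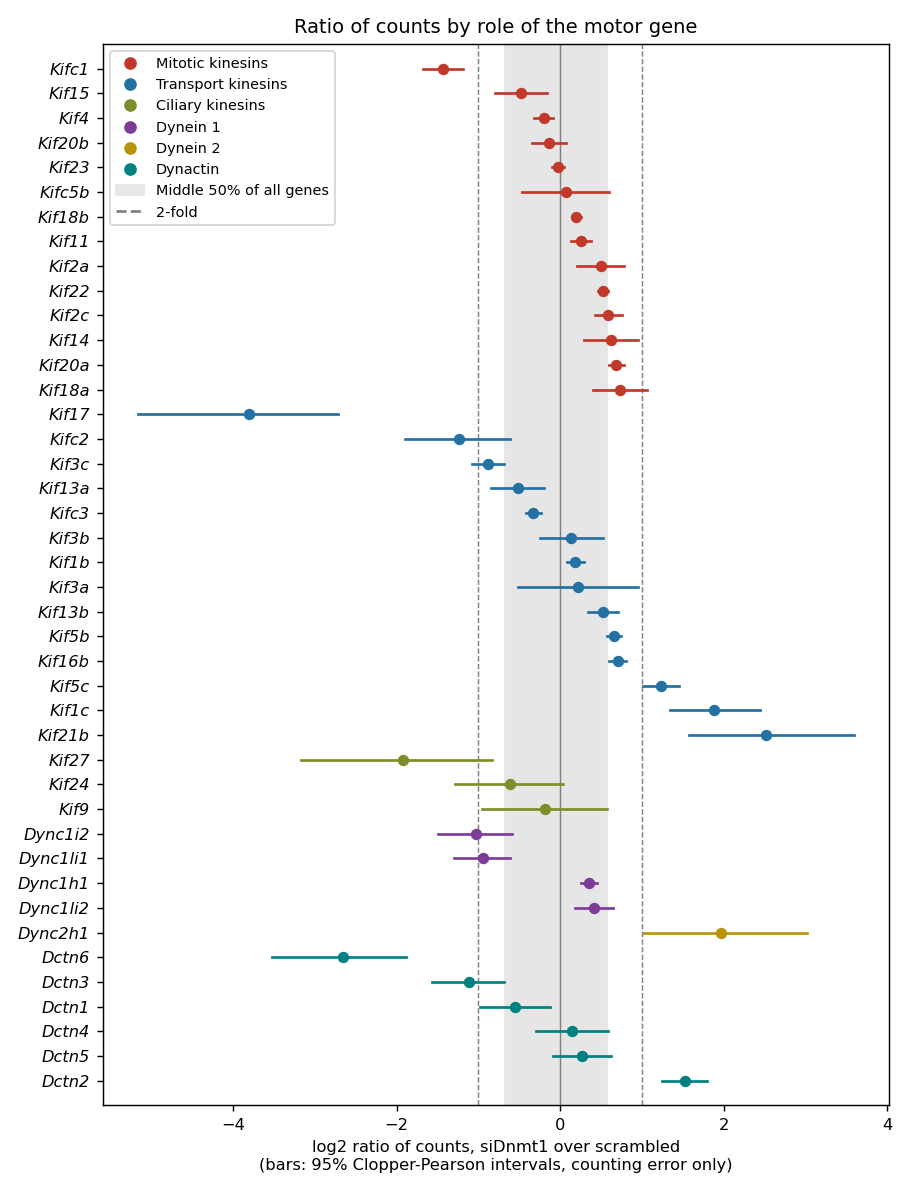
Plain log2 ratio of counts, siDnmt1 over scrambled, for the 42 motor genes by role, with bars for the 95% intervals of counting error. The grey band is the middle 50% of all genes on the scale with 5 added to each count, and dashed lines mark 2-fold. The points of all mitotic kinesins but Kifc1 lie between the dashed lines, and transport kinesins, dynein and dynactin reach beyond them on both sides.

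Of the kinesins tied to cilia, 3 were compared. Kif27, a relative of Kif7 that is needed for motile cilia, had 9 counts against 34 (3.78-fold lower, 1.77 to 8.96). Kif24, which limits cilium assembly at the centriole, had 34 against 52 (1.53-fold lower, 0.974 to 2.43) and Kif9, of motile cilia, 29 against 33 (1.14-fold lower, 0.670 to 1.94). The intervals of Kif24 and Kif9 include equality. Dync2h1, the heavy chain of dynein 2, which drives intraflagellar transport back to the cell body, had 47 against 12 (3.92-fold higher, 2.05 to 8.11).

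Cytoplasmic dynein 1 is assembled from heavy, intermediate, light intermediate and light chains. Its heavy chain gene Dync1h1 had 1967 counts against 1538 (1.28-fold higher, 1.2 to 1.37). The intermediate chain gene Dync1i2, which binds dynactin, had 64 against 131 (2.05-fold lower, 1.51 to 2.81). Its log2 ratio of -0.98 with 5 added to each count lay just within 2-fold. The 2 light intermediate chains, which link the motor to cargo adaptors, went opposite ways. Dync1li1 had 111 against 214 (1.93-fold lower, 1.53 to 2.45), and Dync1li2 had 373 against 280 (1.33-fold higher, 1.14 to 1.56). In the scrambled library Dync1li1 had the higher level of the pair per kb, 82.3 against 60.5, and in the siDnmt1 library Dync1li2 had, 80.6 against 42.7. This order depends on the lengths of the longest transcripts, 2601 and 4627 nt. By counts Dync1li2 was the higher of the pair in both libraries.

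Dynactin subunits also differed among themselves. Dctn2, the dynamitin subunit of the shoulder, had 434 counts against 151 (2.87-fold higher, 2.38 to 3.48). Dctn3, its partner in the shoulder, had 65 against 141 (2.17-fold lower, 1.61 to 2.96), and Dctn6, of the pointed end, 16 against 101 (6.31-fold lower, 3.70 to 11.5). Genes with short transcripts had lower ratios in general: the median log2 ratio was -0.53 in the fifth of genes with the shortest transcripts (up to 2330 nt) and 0.18 in that with the longest. The longest transcripts of Dctn3 and Dctn6 have 973 and 1249 nt. With the trend on length removed, the log2 ratio of Dctn3 changed from -1.06 to 0.02 and that of Dctn6 from -2.34 to -1.5, while Dctn2 was at 1.61.

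The other dynactin subunits were closer to equality. Dctn1, the p150 subunit that contacts dynein and the microtubule, had 78 counts against 114 (1.46-fold lower, 1.09 to 1.98). Dctn4 had 94 against 85 and Dctn5, also of the pointed end, 147 against 122, both with intervals of the ratio that include equality (0.816 to 1.5 and 0.941 to 1.54). Of the 6 dynactin subunits not named Dctn, 1 lay beyond 2-fold on the higher side and 2 on the lower, as among the 6 named Dctn. That was 50% of each set, against 29.1% of all genes. Capza1 (2086 against 1944) and Capzb (196 against 140) were closer to equality, with log2 ratios of 0.10 and 0.47. Actr1b, of the actin-like filament, had 336 against 148 (2.27-fold higher, 1.87 to 2.77) and Actr1a, its paralogue, 233 against 161 (1.45-fold higher, 1.18 to 1.78). Actr10, of the pointed end, had 19 against 78 (4.11-fold lower, 2.46 to 7.18) and Capza2, of the capping protein, 34 against 90 (2.65-fold lower, 1.77 to 4.05).

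**Figure D5:**
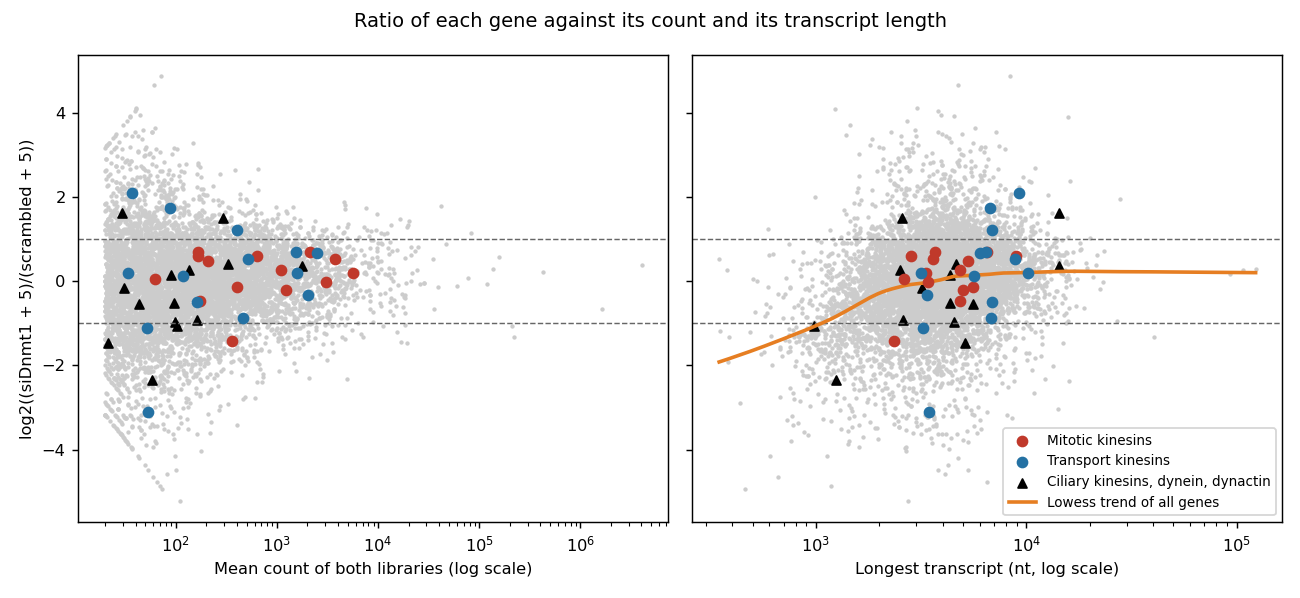
Log2 ratio with 5 added to each count, against the mean count (left) and the longest transcript (right), both on log axes, for all genes compared (grey) and the motors (coloured). The orange line is the lowess trend on length. The spread of grey points narrows to the right in the left panel, where most mitotic kinesins lie, and the trend lies below 0 for short transcripts.

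The partners of these motors were read from lists drawn up by known role. Among 17 compared dynein light chains and regulators, 1 lay beyond 2-fold on the higher side and 3 on the lower (23.5%), near the 29.1% of all genes, and the median log2 ratio was -0.16. Hook1, an adaptor that activates dynein, had 85 counts against 11 (7.73-fold higher, 4.11 to 16.1), and its relative Hook2 had 25 against 84 (3.36-fold lower, 2.13 to 5.48). Dynlrb1, a light chain, had 46 against 123 (2.67-fold lower, 1.89 to 3.84), but its transcript is short (788 nt), and its log2 ratio of -1.33 was -0.06 with the length trend removed. Zw10, which holds dynein at kinetochores, had 158 against 99 (1.60-fold higher, 1.23 to 2.07).

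Of 23 compared spindle and midzone partners, 1 lay beyond 2-fold on the higher side and 0 on the lower (4.35%), against 29.1% of all genes and 20.7% of those with a mean count of 100 or more. Their median log2 ratio was 0.04. The highest was Prc1, the microtubule bundler that positions Kif4 at the midzone, with 1474 counts against 722 (2.04-fold higher, 1.87 to 2.23), followed by Clasp2 with 343 against 191. The lowest were Spag5, with 654 against 1281 (1.96-fold lower, 1.78 to 2.16), and Cdca8, the borealin subunit of the chromosomal passenger complex, with 594 against 1108 (1.87-fold lower, 1.69 to 2.06). Like the mitotic kinesins these genes had many counts, with a median of the mean count of 522, against 515 for the mitotic kinesins and 136 for all genes.

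Tubulins, the track of the motors, had 7 genes compared, with 0 beyond 2-fold on the higher side and 2 on the lower (28.6%). Over all genes 12.5% were beyond it on the higher side and 16.7% on the lower. The median log2 ratio of the tubulins was -0.95, or -0.46 with the length trend removed. Tuba1c had 284 counts against 894 (3.15-fold lower, 2.75 to 3.61) and Tubb6 113 against 231 (2.04-fold lower, 1.63 to 2.58). With the length trend removed the log2 ratio of Tubb6 changed from -1.0 to -0.58, within 2-fold, and that of Tuba1c from -1.64 to -1.35. The highest 2 were Tubb5, with 119 against 144, and Tubg1, of the nucleating ring, with 26 against 34, both with intervals that include equality. Tubulin genes are close copies of one another, so their counts are uncertain.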

How the data were processed

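Gene expression was measured in 2 libraries, 1 from embryos with siRNA against Dnmt1 and 1 from embryos with a scrambled siRNA. The submitters' processing notes name Trim Galore, HISAT2, HTSeq, DESeq2 and mm9, with no versions. The sources used here do not give the annotation, the strand setting or how multiply matching reads were handled. The authors deposited 1 whole number per gene and library, a read count per gene that the labels describe as DESeq2-normalised. The values were used as unscaled counts. Scaling and rounding would skip or pile up some low values, but each value from 1 to 59 occurred, with pile-ups of at most 1.23 (siDnmt1) and 1.29 (scrambled), against at least 1.82 in scaled and rounded copies. Smaller or very strong scalings would not be seen, and the intervals assume unscaled counts. The median ratio over 10900 genes with a count in both libraries was 1.

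With 1 library per group no test between groups could be made. Ratios had 5 added to each count, genes needed a mean of at least 20 counts, and 2-fold was the size rule. Every motor gene past that mean was named. Of each partner list, the 2 highest and 2 lowest ratios were named. Klc1, Klc2, Klc3, Capza1 and Capzb were named in addition. Members and lists were chosen with earlier results of these data known. Roles were assigned by hand: some motors, such as Kif2a, Kif14, Kif21a, Kif21b and Kifc3, also do other work. Lengths are those of the longest GENCODE M21 transcript (99.4% of the genes compared, all 55 motors), and the length trend is a lowess fit with a span of 0.3. M21 is on GRCm38, not mm9, as are the printed RefSeq promoters. A planned search of the proteins for the motor P-loop was not run. Alternatives were pseudocounts, filters, scalings (edgeR 4.0.16 TMM among them), length and a 4-fold rule. Tools were Python 3.11.15, pandas 2.3.3, scipy 1.17.1, statsmodels 0.14.6 and R 4.3.3.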

Additional observations from a re-analysis of the deposited data

How the results depend on the processing

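No paired analysis was possible because each group had 1 library, and for the same reason no library could be left out. With 20 added to each count 3 motors were at least 2-fold lower. With a mean of at least 100 counts 2 motors were at least 2-fold higher and 2 lower, 6 partners were lower, and 395 of all genes were higher and 482 lower. The dynactin median turned from -0.19 to 0.26. With no filter on low counts 1682 genes were higher and 2122 lower. The dynein median, taken over dynein 1 and dynein 2 genes together, moved from 0.35 to 0.0454. As reported, the 4 compared dynein 1 genes alone had a median of -0.28, with 2 above 0 and 2 below. At a 4-fold rule 193 genes were higher and 330 lower, 1 motor was higher and 2 lower, and 1 partner each way. With the length trend removed the dynein median was 0.12, the dynactin median turned to 0.03 and the log2 ratio of Dctn3 turned from -1.06 to 0.0211. Without Kif2a, Kif14, Kif21a, Kif21b and Kifc3, an alternative chosen after seeing the data, the median of the mitotic kinesins was 0.13, against 0.23. Mitotic minus transport was then -0.05, against 0.04 as reported, so the order of both medians turned. The cause of these shifts was not tested. A filter or threshold also leaves a smaller or larger set of genes. The other scalings moved the median of all genes by at most 0.09. Of the motors past 2-fold, all but Dctn3, Kif27 and Kifc2 stayed past it under each setting of pseudocount, filter, scaling and length that kept them in the comparison. Kif1b, Kif3b and Kif23 lay so near 0 that their sign changed under at least 1 setting. Depth limits the genes with few counts most, such as Kif21b and Dync2h1.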
